A study of Mus with 6 samples.

Results

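The pathway of glucose uptake and breakdown to lactate was followed at the RNA level through 10 genes: Slc2a1, which encodes the glucose transporter GLUT1, and the glycolytic enzyme genes Hk2, Gpi1, Pfkl, Aldoa, Tpi1, Gapdh, Pgk1, Pkm and Ldha. The genes were taken by Ensembl ID, and 10 of 10 were found among the 15646 genes of the deposited count table. All 10 passed the filter on low counts, which left 14348 genes for testing. The samples were pancreatic tumors from mice in which KPC1199 cells, a mouse pancreatic ductal adenocarcinoma line, had been implanted in the pancreas. Obesity was genetic: 3 libraries, numbered 1, 3 and 4, came from ob/ob hosts, whose leptin gene is inactive, and 3 lean libraries, numbered 1, 2 and 3, came from wild-type (WT) hosts. No treatment, age or sex of the hosts is given in the sources used here, and all 6 tumors derive from 1 cell line. The comparison asks how the tumor transcriptome differs between obese and lean hosts.

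In glycolysis, glucose enters the cell through a transporter, is phosphorylated and rearranged, and is then split into triose phosphates. The later steps oxidize and dephosphorylate these trioses to pyruvate, with a gain of ATP and NADH. Lactate dehydrogenase reduces pyruvate to lactate and so returns NADH to NAD+. Many tumors, pancreatic ductal adenocarcinoma among them, are known for high glucose uptake and lactate output, and most of these genes are known targets of the transcription factors HIF-1 and MYC.

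The libraries held 7122533 to 8521244 counts. The 10 genes had between 743 counts (Pfkl in lean 2) and 20615 counts (Gapdh in obese 1) per library. Levels are given below as CPM, that is, counts brought to a common library size, with TMM factors that correct each library for its composition. CPM is not corrected for transcript length, so levels are compared between libraries for 1 gene and not between genes. The tumors were sequenced as bulk tissue, in which a different share of tumor cells and a different amount of RNA per cell cannot be told apart. Markers of other cell types could not be looked up, because the gene table used here does not pair Ensembl IDs with symbols, and the part of such cells in these levels was not tested.

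Ldha, which encodes the A subunit of lactate dehydrogenase, was higher in tumors of obese hosts, by 33% on average. It was the only 1 of the 10 genes to pass the test (adjusted p under 0.05), and the only 1 whose groups did not overlap. Over all genes tested, every obese library lay above every lean one for 20.3% and below every lean one for 20.0%. A count of 1 in 10 without overlap is thus not above the background. Aldoa and Tpi1, the enzymes that split the hexose and interconvert the trioses, had fold changes of the same size but did not pass. For the transporter Slc2a1 and for Pkm, the pyruvate kinase gene, the group means were close to equal. The call of 1 gene in 10 compares with 20.8% of all genes tested that were called in either direction. For calls of higher expression the share of all genes was 10.3%, so that 1 in 10 is near the background. Without obese 3 the count was 3 of 10 (Ldha, Aldoa and Tpi1), where 9.97% of all genes were called higher. Without lean 2, lean 3, obese 1 or obese 4 it was 0, where 3.84%, 5.30%, 4.77% and 6.52% of all genes were called higher. No member was called lower in the fits without a replicate block, by edgeR, DESeq2 or limma-voom, against 10.6% of all genes (edgeR); at an unadjusted p under 0.05, 3 members passed, all of them higher, against 36.2% of all genes in either direction.

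**Figure D1:**
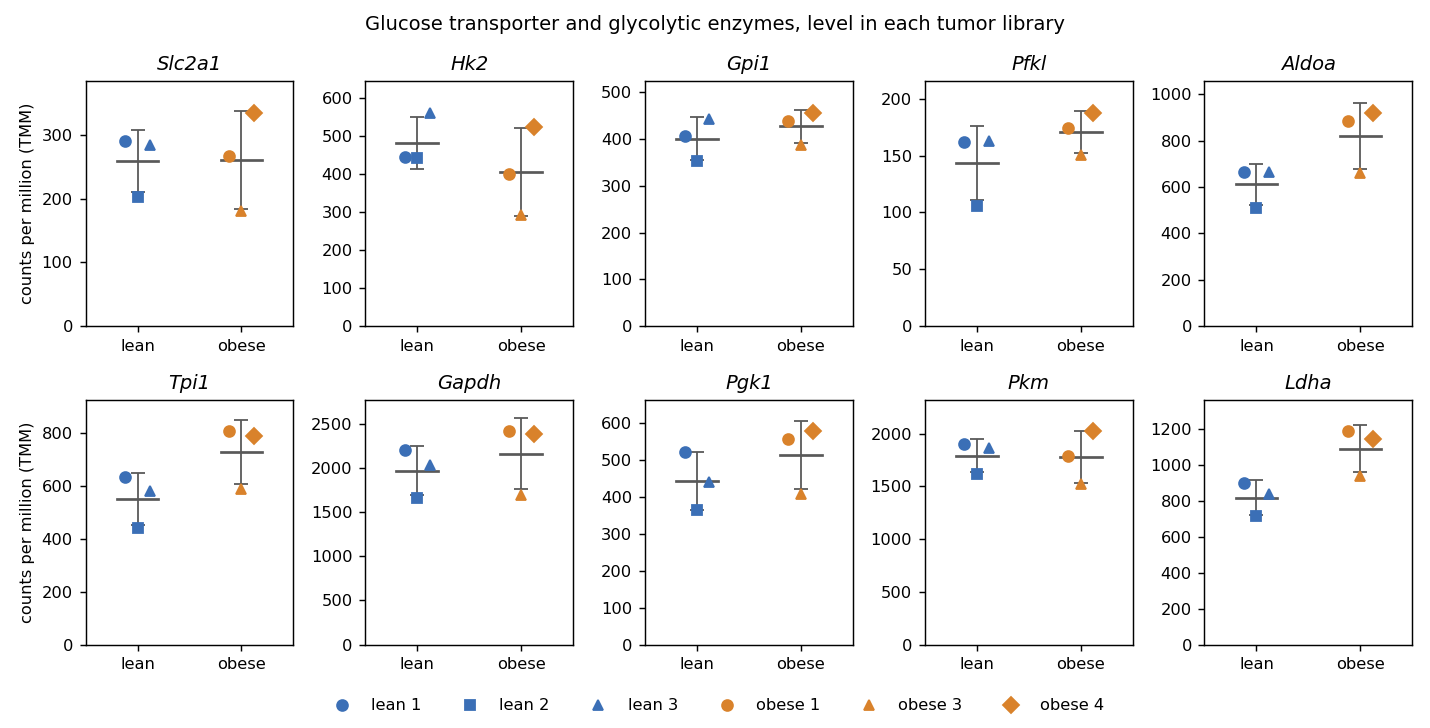
Level of each gene in CPM (vertical axis, from 0; scaled by TMM) in the 3 lean and 3 obese libraries, with 1 symbol per library, a bar at the group mean and whiskers of 1 SD. Only for Ldha do all obese libraries (939.6 to 1185 CPM) lie above all lean ones (714 to 901 CPM), and in every panel lean 2 and obese 3 are the lowest of their groups.

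The first step, uptake, is represented by the RNA level of Slc2a1 (ENSMUSG00000028645.11), which lies on chromosome 4 from 119108745 to 119137330 in GRCm38. GLUT1 carries glucose across the plasma membrane. Slc2a1 stood at 291, 203 and 284 CPM in lean 1, 2 and 3 and at 267, 181 and 335 CPM in obese 1, 3 and 4. Both the lowest and the highest library were from obese hosts, and the groups overlapped throughout. The means were 259 ± 48.9 CPM in lean and 261 ± 77.0 CPM in obese hosts (SD, n = 3 each). The log2 fold change was 0.01 (SE 0.20; edgeR adjusted p = 0.982). Its 95% interval of -0.44 to 0.45 corresponds to a fold of 0.738 to 1.37, so a moderate change in either direction was not excluded with 3 libraries a group.

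Hk2 (ENSMUSG00000000628.10; chromosome 6, 82725025 to 82774454) encodes hexokinase 2, which phosphorylates glucose and so traps it in the cell. It was measured at 445, 442 and 562 CPM in lean 1, 2 and 3 and at 401, 292 and 526 CPM in obese 1, 3 and 4. Obese 1 and obese 3 lay below every lean library, while obese 4 lay above lean 1 and lean 2. Hk2 had the lowest fold change of the 10 genes, with a log2 fold change of -0.25 (SE 0.18, 95% interval -0.66 to 0.16; edgeR adjusted p = 0.356). Its value depended on obese 3, without which the log2 fold change was -0.05 (edgeR adjusted p = 0.823), and on obese 4, without which it was -0.48 (edgeR adjusted p = 0.0768). Without lean 3 it was -0.13 (edgeR adjusted p = 0.713). With the replicate number as a block it was -0.55 and passed (edgeR adjusted p = 0.0292), where 7.66% of all genes were called lower. The numbers of lean 2 and obese 4 occur in 1 group only. That fold change therefore rests on lean 1, lean 3, obese 1 and obese 3. Whether the numbers pair samples is not settled.

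Gpi1 and Pfkl act next. Glucose phosphate isomerase, from Gpi1 (ENSMUSG00000036427.5; chromosome 7, 34201327 to 34230336), turns glucose phosphate into fructose phosphate. Gpi1 had 407, 352 and 443 CPM in lean 1, 2 and 3 and 438, 387 and 456 CPM in obese 1, 3 and 4. The groups overlapped, and Gpi1 had the smallest SE of the 10 genes, with a log2 fold change of 0.09 (SE 0.11, 95% interval -0.16 to 0.34; edgeR adjusted p = 0.593). Pfkl (ENSMUSG00000020277.10; chromosome 10, 77986947 to 78009807) encodes the liver-type subunit of phosphofructokinase, which catalyses the committed step of the pathway. Pfkl stood at 162, 106 and 163 CPM in lean 1, 2 and 3 and at 174, 151 and 188 CPM in obese 1, 3 and 4. Lean 2 was far below the other libraries, and obese 3 was below lean 1 and lean 3. The log2 fold change of Pfkl was 0.25 (SE 0.16, 95% interval -0.10 to 0.61; edgeR adjusted p = 0.285).

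Aldoa (ENSMUSG00000030695.16; chromosome 7, 126795234 to 126800994) encodes aldolase A, which splits fructose bisphosphate into trioses. It had 664, 509.8 and 664 CPM in lean 1, 2 and 3 and 885, 659 and 920.1 CPM in obese 1, 3 and 4. Obese 1 and obese 4 lay well above all lean libraries, and obese 3 fell just below lean 1 and lean 3. The means were 613 ± 89.0 CPM in lean and 821 ± 142 CPM in obese hosts (SD, n = 3 each), a fold of 1.34 (95% interval 1.07 to 1.68) and a log2 fold change of 0.42 (SE 0.15). The adjusted p was 0.0622 (edgeR), above the threshold. Aldoa passed with upper-quartile scaling (edgeR adjusted p = 0.0496), with total counts only (edgeR adjusted p = 0.0306), with DESeq2 (adjusted p = 0.0373) and without obese 3 (edgeR adjusted p = 0.00872). Over all 14 alternatives its adjusted p ranged from 0.00872 to 0.362.

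Tpi1 (ENSMUSG00000023456.16; chromosome 6, 124810586 to 124814158) encodes triose phosphate isomerase, which interconverts the products of aldolase. Its levels were 632, 441 and 581 CPM in lean 1, 2 and 3 and 806, 589 and 789 CPM in obese 1, 3 and 4. As for Aldoa, obese 1 and obese 4 exceeded every lean library, and obese 3 did not, lying between lean 3 and lean 1. The means were 551 ± 98.8 CPM in lean and 728 ± 120.4 CPM in obese hosts (SD, n = 3 each), a fold of 1.32 (95% interval 1.04 to 1.67). The log2 fold change was 0.40 (SE 0.15; edgeR adjusted p = 0.0867). Tpi1 passed with total counts only (edgeR adjusted p = 0.0466) and without obese 3 (edgeR adjusted p = 0.0176), and in the other 12 alternatives it did not.

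The middle of the payoff phase is covered by Gapdh and Pgk1. Gapdh (ENSMUSG00000057666.18; chromosome 6, 125161852 to 125166467) encodes glyceraldehyde phosphate dehydrogenase, which oxidizes the triose and is widely used as a reference gene in expression assays. It stood at 2212, 1665 and 2039 CPM in lean 1, 2 and 3 and at 2417, 1697 and 2383 CPM in obese 1, 3 and 4. The spread within each group was larger than the difference of the means, 1972 ± 279.7 CPM in lean and 2166 ± 406 CPM in obese hosts (SD, n = 3 each). The log2 fold change of Gapdh was 0.14 (SE 0.15, 95% interval -0.20 to 0.47; edgeR adjusted p = 0.561). Pgk1 (ENSMUSG00000062070.12; chromosome X, 106187100 to 106203699) encodes phosphoglycerate kinase, which makes ATP in the step after Gapdh. Pgk1 had 522, 366 and 440.4 CPM in lean 1, 2 and 3 and 556, 409 and 577 CPM in obese 1, 3 and 4. Its libraries were ordered within the groups much as those of Gapdh, and its log2 fold change was 0.22 (SE 0.16, 95% interval -0.13 to 0.56; edgeR adjusted p = 0.344).

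Pyruvate is made by pyruvate kinase and used by lactate dehydrogenase, and the genes of these last steps had fold changes of different size. Pkm (ENSMUSG00000032294.17; chromosome 9, 59656576 to 59679372) had 1900.0, 1617 and 1862 CPM in lean 1, 2 and 3 and 1791, 1524 and 2022 CPM in obese 1, 3 and 4. Counts per gene do not separate the splice forms of Pkm. The obese libraries of Pkm spanned the lean ones, with a log2 fold change of -0.01 (SE 0.12, 95% interval -0.28 to 0.26; edgeR adjusted p = 0.959). The sign of this value flipped with upper-quartile scaling (0.02) and with total counts only (0.05).

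Ldha (ENSMUSG00000063229.15; chromosome 7, 46842274 to 46855627) was measured at 901, 714 and 839 CPM in lean 1, 2 and 3 and at 1185, 939.6 and 1145 CPM in obese 1, 3 and 4. Every obese library exceeded every lean one, in 3 of 3 libraries, a pattern that 20.3% of all genes tested showed in this direction and that 20.0% showed in the other. The means were 818 ± 95.3 CPM in lean and 1089.9 ± 132 CPM in obese hosts (SD, n = 3 each), a fold of 1.33 (95% interval 1.10 to 1.61). The log2 fold change was 0.41 with an SE of 0.12 (edgeR adjusted p = 0.0367). Ldha passed under each of the 7 alternative scalings, filters and tests tried with all libraries and no block (adjusted p = 0.0165 to 0.0392). The call was lost without lean 2 (log2 fold change 0.32, edgeR adjusted p = 0.155), without lean 3 (0.43, edgeR adjusted p = 0.0862), without obese 1 (0.35, edgeR adjusted p = 0.124) and without obese 4 (0.38, edgeR adjusted p = 0.103). It was kept without lean 1 (0.49, edgeR adjusted p = 0.038) and without obese 3 (0.52, edgeR adjusted p = 0.00839).

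**Figure D2:**
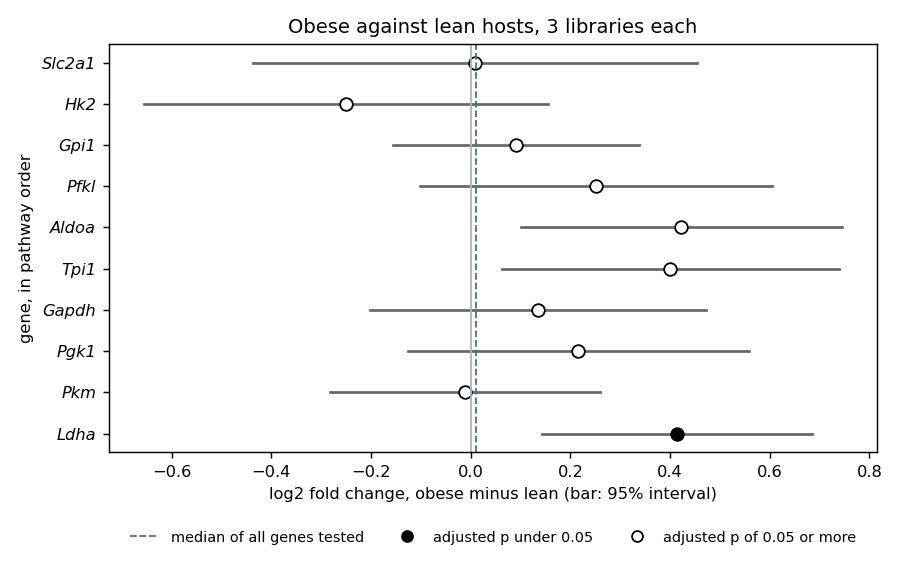
Log2 fold change of each gene, obese minus lean (horizontal axis), with 95% intervals from the edgeR fit and the genes in pathway order from top to bottom. The filled point marks Ldha, the only gene that passed the test, at 0.41, and the dashed line marks the median of all genes tested, 0.01.

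Across the pathway, 8 of the 10 genes had a log2 fold change above 0 and 2 (Hk2 and Pkm) below it, where 50.9% of all genes tested were above 0. The median log2 fold change was 0.18 for the 10 genes and 0.01 for all genes tested. These values depended on the libraries: the median of the 10 genes was 0.29 without lean 1, 0.05 without lean 2, 0.11 without obese 1, 0.31 without obese 3 and 0.09 without obese 4. With 1 library left out, 7 to 9 of the 10 genes lay above 0. With the replicate number as a block, 3 of the 10 lay above 0, with a median of -0.03, where 50.5% of all genes were above 0. The fold changes of that fit come from lean 1, lean 3, obese 1 and obese 3, without lean 2 and obese 4. Most of the genes also varied together between libraries, so they are not 10 separate observations. By size alone the 10 genes differed less than the genes at large: the median of the log2 fold changes without their sign was 0.23 here and 0.32 over all genes tested. The median SE was 0.15 for the 10 genes and 0.19 over all genes. The 10 genes had 743 counts or more in every library, and no comparison was made with genes of like abundance. Summed over the 10 genes, the level was 7476 ± 927 CPM with lean hosts and 8363 ± 1346 CPM with obese ones (SD, n = 3 each). The sums overlapped, with 8136, 6416 and 7877 CPM in lean 1, 2 and 3 and 8919, 6828 and 9341 CPM in obese 1, 3 and 4.

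Most of the genes moved together from library to library within a group. Lean 2 was the lowest lean library for 10 of 10 genes, and obese 3 was the lowest obese library for 10 of 10. For Hk2, lean 2 (442 CPM) was barely below lean 1 (445 CPM) and lay 0.02 log2 units above the gene's own mean. The share of all genes that were lowest in these libraries was not computed. Averaged over the 10 genes, the deviation of log2 CPM from each gene's own mean was -0.33 in lean 2 and -0.21 in obese 3. It was 0.05 in lean 1, 0.03 in lean 3, 0.17 in obese 1 and 0.28 in obese 4, so that the libraries were not ordered by host alone. Lean 2 and obese 3 were also the libraries with the fewest counts, 7122533 and 7791756, against 8303852 to 8521244 in the other 4, and the part of depth or of sample make-up in these low levels was not tested. The typical SD of log2 CPM within a group was 0.26 for the 10 genes and 0.22 for all genes tested (medians).

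**Figure D3:**
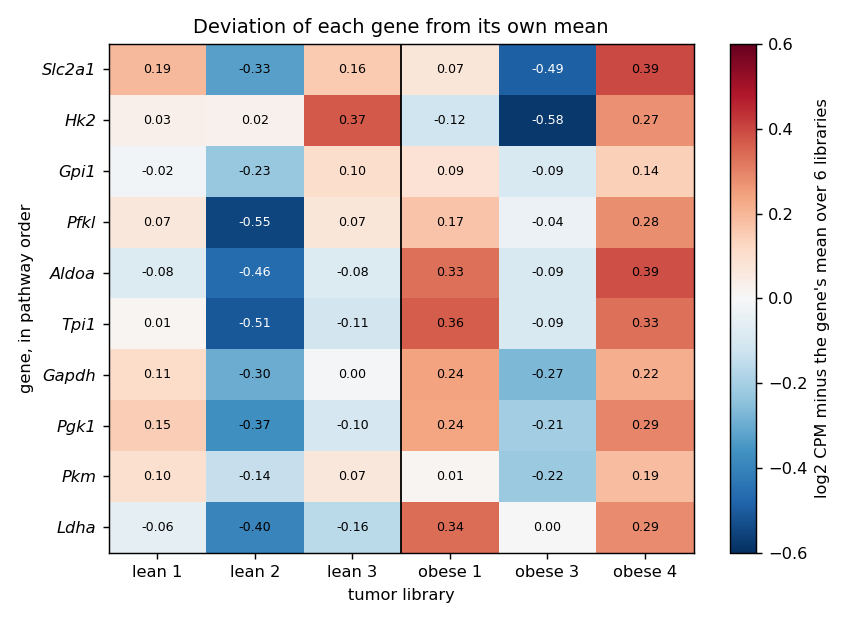
Log2 CPM of each gene (rows, in pathway order) minus its own mean over the 6 libraries (columns), with lean to the left and obese to the right of the line; red is above and blue below the mean. The columns of lean 2 and obese 3 are mostly blue, with averages of -0.33 and -0.21, and obese 4 is red for every gene.

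Gapdh followed this shared pattern most closely, with a root mean square difference of 0.05 log2 units from the mean profile of the 10 genes over the 6 libraries. Pgk1 came next at 0.07 and Gpi1 at 0.10, and Hk2 was the farthest at 0.28. Because the mean profile includes each of these genes, the distances are a description. Outside the 10 genes, the closest profiles among genes of at least 1 CPM were those of ENSMUSG00000079038.3 (distance 0.05, mean 5.05 CPM, log2 fold change 0.17, edgeR adjusted p = 0.692) and ENSMUSG00000107362.1 (distance 0.05, mean 17.7 CPM, log2 fold change 0.19, edgeR adjusted p = 0.478). No symbol could be attached to either ID.

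No scaling of libraries can alter ratios of counts within a library. Set against Gapdh, the counts of Ldha, Aldoa and Tpi1 varied less within a group, in proportion to their means, than their levels did. This did not hold for every other gene as the denominator. Ldha stood at 40.7, 42.9 and 41.1 counts per 100 Gapdh counts in lean 1, 2 and 3 and at 49.0, 55.4 and 48.0 in obese 1, 3 and 4. Aldoa had 30.0, 30.6 and 32.6 per 100 Gapdh counts in lean 1, 2 and 3, and 36.6, 38.8 and 38.6 in obese 1, 3 and 4. For Tpi1 the values were 28.6, 26.5 and 28.5 in lean 1, 2 and 3, and 33.3, 34.7 and 33.1 in obese 1, 3 and 4. On this measure all 3 genes were higher in every obese library, including obese 3. The ratio to Gapdh was higher in obese hosts by 1.22-fold for Ldha, 1.22-fold for Aldoa and 1.21-fold for Tpi1. Of the 9 genes set against Gapdh, these 3 were higher without overlap and 0 were lower, so 3 of 9 did not overlap. Of all genes tested, 22.7% had a ratio to Gapdh without overlap in either direction, so the count of 3 in 9 is near the background. The other 6 overlapped, among them Hk2, with 24.7 ± 4.04 counts per 100 Gapdh counts in lean and 18.6 ± 3.01 in obese hosts, and Pgk1, with 22.4 ± 1.06 and 23.8 ± 0.674 (SD, n = 3 each).

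**Figure D4:**
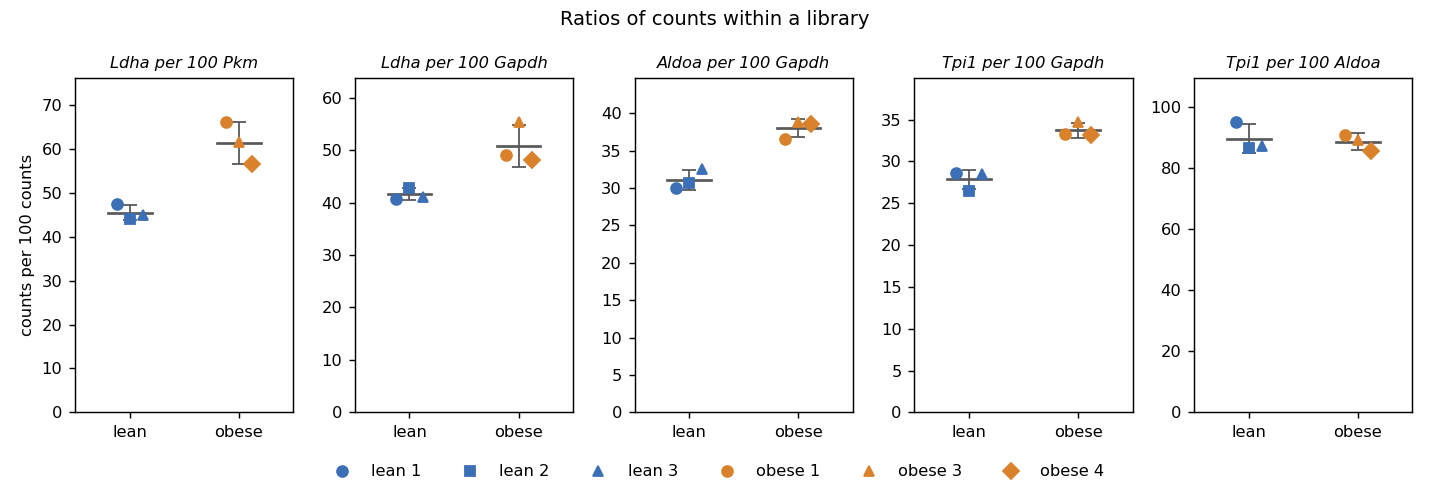
Counts of 1 gene per 100 counts of another in the same library (vertical axes, from 0), with 1 symbol per library, a bar at the group mean and whiskers of 1 SD. Ldha per 100 Pkm or Gapdh, and Aldoa and Tpi1 per 100 Gapdh, do not overlap between lean and obese libraries, whereas Tpi1 per 100 Aldoa does (86.5 to 95.2 in lean, 85.8 to 91.1 in obese).

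At the end of the pathway, lactate dehydrogenase was set against pyruvate kinase. Ldha had 47.4, 44.1 and 45.0 counts per 100 Pkm counts in lean 1, 2 and 3 and 66.2, 61.7 and 56.6 in obese 1, 3 and 4. All obese values were above all lean values, and the ratio was 1.35-fold higher in obese hosts, a difference chosen after the values were seen and not tested. Against Hk2, at the start of the pathway, Ldha was 1.62-fold higher, with 202, 161 and 149 counts per 100 Hk2 counts in lean 1, 2 and 3 and 296, 322 and 218 in obese 1, 3 and 4. Hk2 had the lowest fold change of the 10 genes, and this ratio too was chosen after the values were seen and not tested. Between Aldoa, Tpi1 and Ldha themselves, the groups overlapped in 3 of 3 pairs, and the ratio differed by a fold of 0.990 (Tpi1 to Aldoa), 0.997 (Ldha to Aldoa) and 1.01 (Ldha to Tpi1). Of the 45 pairs of the 10 genes, 17 did not overlap between groups, 16 of them pairs of Aldoa, Tpi1 or Ldha with another of the genes and 1 the pair of Pfkl and Pkm. Among all pairs of tested genes with counts in every library, 38.1% did not overlap, so the count of 17 in 45 is near the background. Aldoa, Tpi1 and Ldha were set apart here after their values were seen, and no test was made of them as a group.

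**Figure D5:**
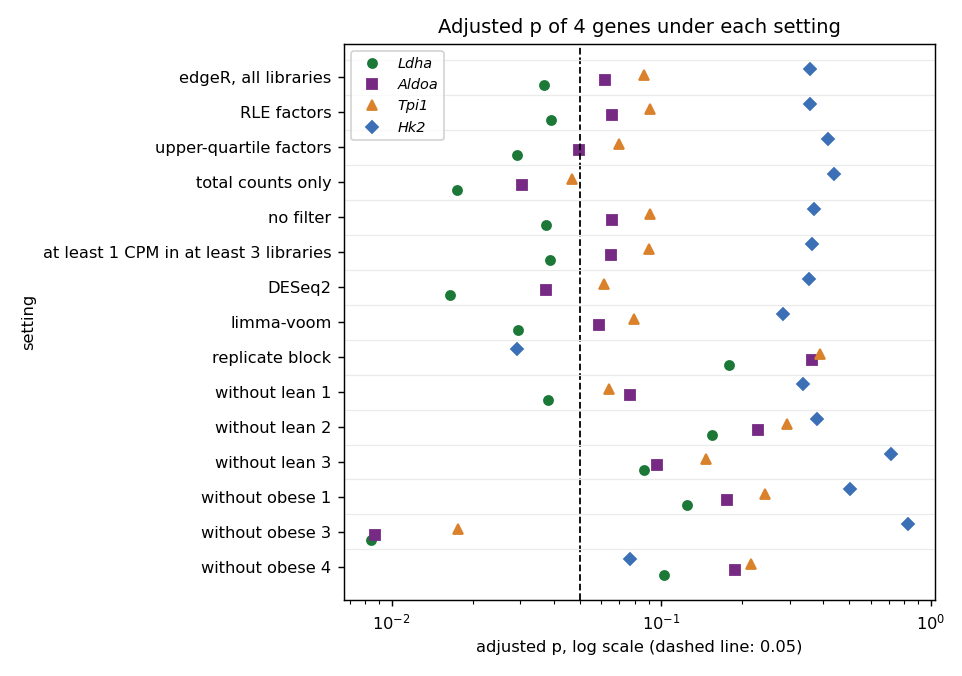
Adjusted p (horizontal axis, log scale; over all genes tested) of Ldha, Aldoa, Tpi1 and Hk2 under each scaling, filter, test and left-out library (vertical axis), with a dashed line at 0.05. Ldha lies left of the line in the first 8 settings and right of it with the replicate block and without lean 2, lean 3, obese 1 or obese 4, while all of Ldha, Aldoa and Tpi1 lie left of it without obese 3.

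Some counts could be shared with other loci. In the RefSeq table of GRCm38.p6, 19 pseudogenes are named after 5 of the genes: 7 after Tpi1 and 3 each after Aldoa, Gapdh, Pgk1 and Ldha. Their sequences were not compared here, and whether reads were split between a gene and such entries is not known. Slc2a1, Tpi1, Pkm and Ldha overlap another annotated gene, Tpi1 that of Spsb2, and without the strand setting reads of such neighbours cannot be told apart.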

How the data were processed

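Total RNA (500 ng per library) was extracted from tumor tissue, and ribosomal RNA was removed during library preparation, per the labels' protocols. The authors deposited raw counts per gene for 6 libraries; CASAVA, STAR, Subread and the mouse build GRCm38 are named in the submitters' processing notes, and for versions, strand handling and multiply mapped reads, nothing was given in the sources used here. Titles starting with OB were taken as ob/ob hosts and those starting with ND as the lean hosts of the design text. No label says that libraries came from separate mice, so a p-value here reflects only the spread between the samples sequenced, which may be technical.

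Counts were tested with edgeR 4.0.16 in R 4.3.3 (expression filter at its defaults, minimum count 10 and total 15; TMM factors; quasi-likelihood F test, two-sided; Benjamini-Hochberg adjustment over 14348 genes; called at an adjusted p under 0.05). SE is the log2 fold change divided by the square root of F, and 95% intervals use the fit's degrees of freedom. The script was tested on simulated data. Profiles were compared on log2 CPM with a prior count of 2. Alternatives used DESeq2 1.42.0, limma-voom (limma 3.58.1), other scalings and filters, the replicate number as a block, and each library left out.

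The 10 genes and all lists were chosen with earlier results of these data known. All 10 genes are named whatever their values, with the 2 other genes nearest to their mean profile. The IDs were paired with symbols by the rule that chose the genes, and all 10 symbols matched RefSeq (GRCm38.p6), which gave the positions. Ensembl IDs are given for 0 of its 49997 entries. The 14 lists of other pathway and cell type genes, 106 symbols, could therefore not be looked up and were not tested. No sequence is shown.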

Additional observations from a re-analysis of the deposited data

How the results depend on the processing

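Ldha was called higher in 9 of 14 alternatives and kept its direction in all 14, with a log2 fold change of 0.28 to 0.52 and an adjusted p of 0.00839 to 0.178. The number of the 10 genes called higher, 1 with edgeR and all libraries, was 2 with upper-quartile factors or DESeq2, 3 with total counts only, and 0 to 3 when 1 library was left out. The share of all genes called higher was 11.5% with upper-quartile factors, 10.6% with DESeq2, 12.5% with total counts only and 3.84% to 9.97% with 1 library left out. The number of the 10 genes called lower was 0 in each of these fits. Leaving out 1 library gave 1179 (without lean 2) to 3066 (without obese 3) called genes over all genes tested. Of all called genes, 49.3% were higher in obese hosts with TMM and 60.6% with total counts only. Libraries numbered 1 and 3 exist for both hosts. After removal of the group means, the like-numbered libraries correlated at 0.090 and 0.074, the highest of the 9 pairs, and the unlike-numbered ones at -0.131 to 0.066. Whether the numbers pair samples is not settled by this. In the fit with the replicate block, lean 2 and obese 4 carry numbers found in 1 group only and add nothing to the fold changes. This fit called 2087 genes (6.89% of all genes higher, 7.66% lower). There 0 members were called higher (Ldha 0.28, adjusted p = 0.178), 1, Hk2, was called lower (-0.55, adjusted p = 0.0292), and 3 of the 10 were above 0 (median -0.03). Signs turned only for genes that had not passed the test: with the block Slc2a1 was -0.39, Gpi1 -0.045, Pfkl -0.0019, Gapdh -0.068 and Pgk1 -0.0077. Slc2a1 was -0.021 with limma-voom, and -0.21 to 0.22 with 1 library left out. Pkm was 0.020 with upper-quartile factors, 0.045 with total counts only, and -0.12 to 0.094 with 1 library left out. Apart from the libraries that each fit used, the causes were not tested. Each of the 10 genes had 743 counts or more in every library; counting error was not set against the spread between libraries.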
